A study of Mus musculus with 12 samples.

Results

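The antioxidant and metal response of mouse embryonic stem cells was followed through 35 genes, out of 45616 genes and unnamed accessions on an Agilent 1-colour array. The 35 were a given list of genes tied to the transcription factor NRF2 (Nfe2l2) or to metallothionein, and their probes were found through the accession each probe carries. All cells were embryonic stem cells in standard stem cell medium with leukaemia inhibitory factor and 250 nM PD173074, which blocks fibroblast growth factor receptors, so the controls carried that inhibitor too. The 4 groups of 3 arrays were untreated cells (titled 0 h), cells given 250 nM 4OHT (4-hydroxytamoxifen) for 6 h, cells under the proteasome inhibitor MG132 at 1 µM for 30 min and a further 6 h, and cells that received both, MG132 first and 4OHT 30 min later for 6 h. The series' design text calls the replicates biological. 4OHT is a ligand of oestrogen receptor fusion proteins, and the labels used here name neither such a fusion nor the cell line. No vehicle group and no untreated group at 6 h were analysed here, so in every comparison with untreated cells the compound and the hours in treatment cannot be told apart.

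NRF2 is normally bound by KEAP1, which hands it to a ubiquitin ligase for destruction by the proteasome. When KEAP1 is modified by electrophiles, or when destruction is blocked, NRF2 gathers in the nucleus, pairs with a small MAF protein and binds antioxidant response elements beside genes for glutathione synthesis, thioredoxin, haem breakdown and NADPH supply. Metallothioneins, which bind zinc and copper, and the zinc exporter Slc30a1 are switched on by the zinc-sensing factor MTF1 through metal response elements. NRF2 and NRF1 protein are both turned over by the proteasome, which an array of RNA does not measure.

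Promoter windows of 300 bases, from 250 bases before to 50 bases after a transcript's start, were taken from RefSeq on build GRCm38.p6, and 30 of the 35 genes matched, with 43 windows. The letters TGACNNNGC, the core of the antioxidant response element, were found on either strand in 14 of the 43 windows (32.6%), which belonged to 14 genes, against 12.4% of all 32851 windows. The metal response element core, TGCACNC or TGCGCNC, was found in 12 windows (27.9%) of 11 genes, against 25.7% of all windows. Matches of the 2 motifs may overlap, and a match is a description of these letters and not a measured site. The windows of Slc7a11, Osgin1, Sqstm1, Ephx1 and Nqo1 held no antioxidant response element core, and Hmox1, Gclc, Abcc1, Gsr and Gsta4 had no window. Mt1 and Mt2 were taken for display. Beside them stand members called higher with MG132 alone or with both compounds against 4OHT. Of these, the largest rises whose window held the antioxidant core were picked. The windows of these 6 genes are shown 5′ to 3′ on each gene's own strand. Capitals mark the metal response element core for the metallothioneins and the antioxidant response element core for the others. They are Mt1 at chr8:94178839-94179138 on the plus strand, Mt2 at chr8:94172368-94172667 on the plus strand, Srxn1 at chr2:152105274-152105573 on the plus strand, Gclm at chr3:122245307-122245606 on the plus strand, Mafg at chr11:120633498-120633797 on the minus strand and Maff at chr15:79346371-79346670 on the plus strand, the last being 1 of 3 windows of Maff.
Mt1: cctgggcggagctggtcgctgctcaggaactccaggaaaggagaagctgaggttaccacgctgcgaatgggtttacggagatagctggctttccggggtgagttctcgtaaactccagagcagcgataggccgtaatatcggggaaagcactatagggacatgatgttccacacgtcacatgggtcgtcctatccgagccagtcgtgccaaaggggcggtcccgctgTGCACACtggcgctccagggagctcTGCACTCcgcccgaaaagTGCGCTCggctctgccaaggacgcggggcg
Mt2: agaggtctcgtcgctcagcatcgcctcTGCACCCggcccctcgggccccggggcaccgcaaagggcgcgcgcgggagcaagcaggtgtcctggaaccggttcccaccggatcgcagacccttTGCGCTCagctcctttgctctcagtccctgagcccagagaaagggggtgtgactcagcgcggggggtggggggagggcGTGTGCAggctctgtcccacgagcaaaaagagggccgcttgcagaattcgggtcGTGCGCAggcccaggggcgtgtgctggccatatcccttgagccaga
Srxn1: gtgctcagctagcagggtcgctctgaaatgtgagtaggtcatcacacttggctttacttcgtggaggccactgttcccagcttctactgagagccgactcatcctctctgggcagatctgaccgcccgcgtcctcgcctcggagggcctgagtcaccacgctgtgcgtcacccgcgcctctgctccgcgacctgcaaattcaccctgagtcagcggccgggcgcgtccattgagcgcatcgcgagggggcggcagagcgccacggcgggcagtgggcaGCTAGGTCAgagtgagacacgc
Gclm: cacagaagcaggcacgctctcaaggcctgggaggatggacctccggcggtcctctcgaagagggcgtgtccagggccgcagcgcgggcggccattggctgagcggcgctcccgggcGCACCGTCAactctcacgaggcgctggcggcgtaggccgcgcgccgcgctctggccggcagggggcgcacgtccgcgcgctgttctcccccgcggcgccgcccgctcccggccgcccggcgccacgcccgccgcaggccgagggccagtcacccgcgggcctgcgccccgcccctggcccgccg
Mafg: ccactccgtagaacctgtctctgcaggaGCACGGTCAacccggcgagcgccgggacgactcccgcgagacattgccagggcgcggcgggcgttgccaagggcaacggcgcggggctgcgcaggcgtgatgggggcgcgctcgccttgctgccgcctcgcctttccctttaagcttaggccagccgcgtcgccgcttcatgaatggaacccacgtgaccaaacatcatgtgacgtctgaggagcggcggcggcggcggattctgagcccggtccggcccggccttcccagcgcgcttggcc
Maff: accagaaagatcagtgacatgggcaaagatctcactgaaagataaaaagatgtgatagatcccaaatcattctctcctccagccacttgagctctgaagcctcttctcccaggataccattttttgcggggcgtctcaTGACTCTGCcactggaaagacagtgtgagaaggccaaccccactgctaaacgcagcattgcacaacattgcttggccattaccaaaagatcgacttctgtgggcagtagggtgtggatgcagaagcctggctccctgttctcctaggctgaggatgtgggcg
The window of Mt1 held 3 metal response element cores and that of Mt2 held 4, a density of at least 3 that 1.97% of all windows reached. Mt2 also held 1 antioxidant core, and Gclm, whose window had 3 metal response element cores, was the other member with that density.

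Levels below are log2 processed intensities minus the 75th percentile of the same array, so that 0 is the intensity of that percentile. Probes differ in brightness, so levels of different genes are not compared. A difference is given on the same log2 scale with its standard error and the adjusted p of limma over the 26841 genes tested, and a gene is called higher or lower where that p is under 0.05. Between 49.5% and 63.2% of probes were well above background per array, and the 75th percentile lay between 309.4 and 484.9 intensity units. Arrays of a group correlated at 0.976 to 0.982 with 4OHT alone and at 0.987 to 0.996 in the other groups. All 10 embryonic stem cell markers were above background on every array, and their summed level, on a linear scale relative to the 75th percentile, was 888 to 938 without MG132 and 508 to 581 with it. All 10 were called lower with MG132 against untreated cells, against 18.4% of all genes. The part of this in any result with MG132 was not tested. The summed level of trophoblast markers ranged over 11.6 to 12.8 without treatment, over 20.6 to 47.6 under 4OHT, over 16.4 to 19.4 under MG132 and over 26.1 to 43.2 under both, with Elf5 and Tpbpa never above background. That of fibroblast markers ranged over 1.80 to 2.36, 19.8 to 30.5, 3.96 to 4.16 and 5.83 to 6.75 in the same order, with Lum never above background. Under 4OHT alone Col3a1, Postn and Dcn were not above background either. Against untreated cells 4OHT alone had 3 of 7 tested fibroblast markers called higher and 1 lower, and 5 of 8 trophoblast markers higher and 1 lower. The shares of all genes were 14.7% higher and 13.8% lower. In RNA of whole cultures, fewer cells of a type and less RNA per cell cannot be told apart. Slide 1 held all arrays of untreated cells and of 4OHT alone and 2 of MG132, while slide 2 held the third MG132 array and all arrays with both compounds. The replicate 3 arrays stood apart for several members, so the main results are also given without them.

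All 35 members passed the filter on dim probes, 25 through a single probe. Slc7a11 passed only through the groups with MG132, so it had to be higher there. It adds 1 to each count of members called, or not overlapping, against a group without MG132. It also adds 1 to the next counts of members highest with both compounds. The group mean was highest with both compounds in 25 of 35 members (71.4%), against 33.5% of all genes tested. In 17 members (48.6%) every array with both compounds lay above each of the other 9 arrays, against 10.7% of all genes. These were Abcc1, Fth1, Ftl1, Gclc, Gclm, Hmox1, Keap1, Maff, Mafg, Mafk, Osgin1, Slc7a11, Sqstm1, Srxn1, Tkt, Txn1 and Txnrd1. No member had every array with both compounds below all others, a pattern of 7.99% of all genes. The mean of Ephx1 was highest with MG132 alone, those of Gsta4, Gstm1, Mt1, Pgd, Pir and Taldo1 in untreated cells, and those of Mt2, Nfe2l2 and Slc30a1 with 4OHT alone.

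**Figure D1:**
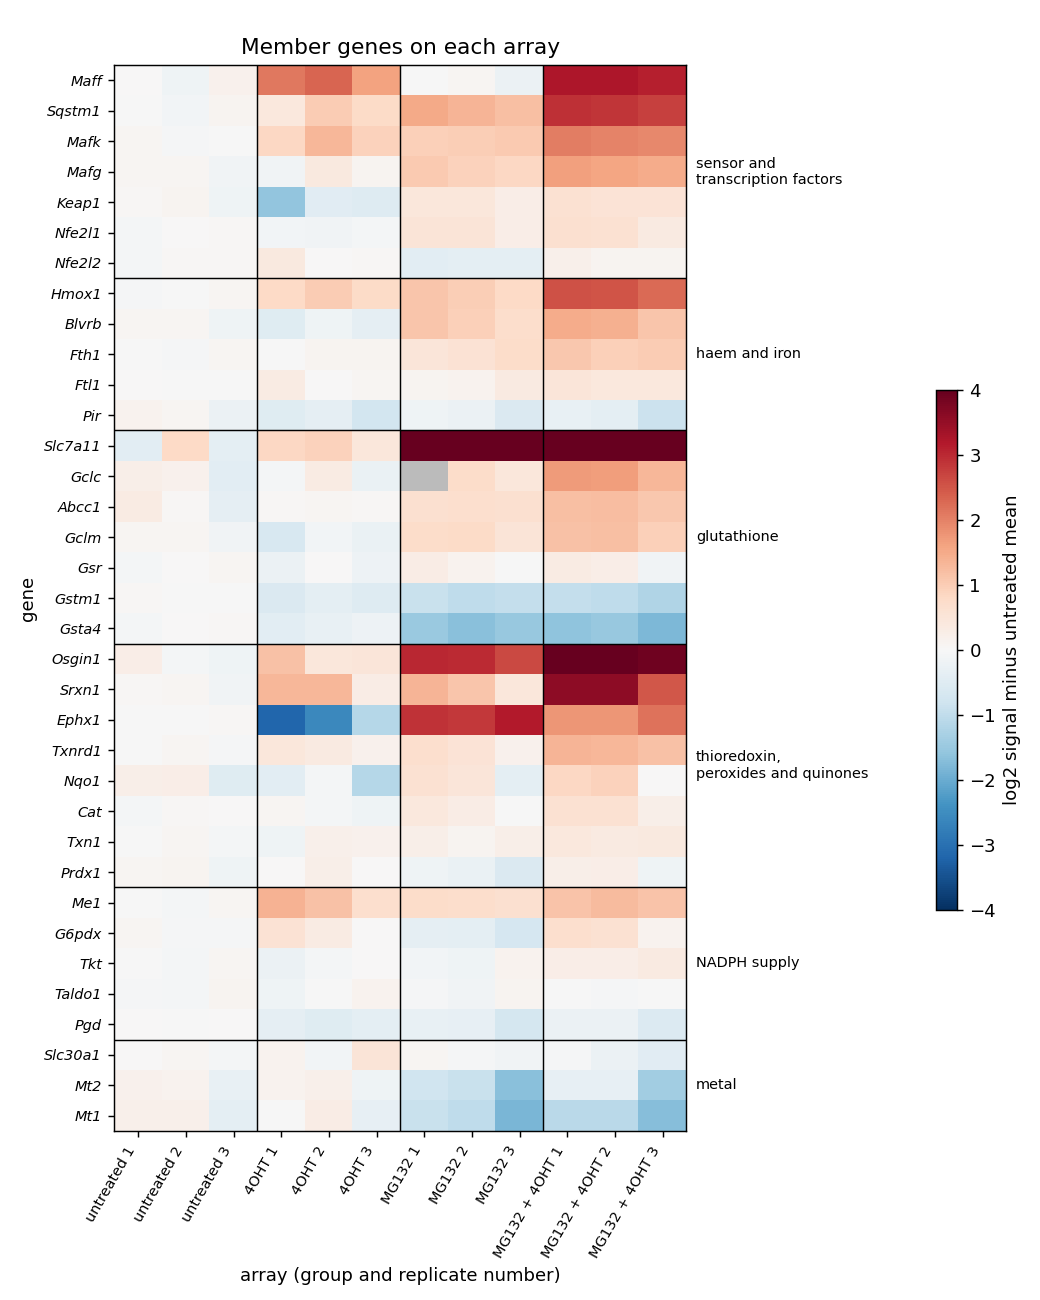
Level of each of the 35 members on each of the 12 arrays, as the log2 difference from the mean of the untreated arrays, with genes in rows grouped by role and arrays in columns grouped by treatment; red is higher and blue lower than untreated, colours are clipped at 4 log2 units either way, and a grey cell has no value. Slc7a11, Osgin1, Srxn1 and Sqstm1 are highest on the 3 arrays with both compounds, and Mt1 and Gsta4 are lower on the arrays with MG132.

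With 4OHT alone against untreated cells, 6 members were called higher and 5 lower, or 31.4% of the 35, against 28.5% of all genes (14.7% higher and 13.8% lower). The called rises were in Maff, Me1, Mafk, Hmox1, Sqstm1 and Osgin1, from 0.70 to 2.02 on the log2 scale, and the called falls in Ephx1, Keap1, Gstm1, Pgd and Gsta4, from -0.31 to -2.31. The call of Gsta4 was lost in 9 of 12 fits that left out 1 array (adjusted p of 0.053 to 0.13) and with slide as a block (adjusted p = 0.053). The 2 groups did not overlap in 16 members, against 41% of all genes, and the median member difference was 0.06 against 0.05 over all genes. The share called is near that of all genes. Without the second untreated array 7 members were called, and without all replicate 3 arrays 13, against 21.4% and 31.8% of all genes.

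With MG132 alone, 14 members were called higher and 7 lower, or 60% of the 35, against 43% of all genes (24.5% higher and 18.4% lower). The measured rises were led by Ephx1, Osgin1 and Sqstm1, that of Slc7a11 being known only as a bound, and the falls by Gsta4, Mt1, Mt2 and Gstm1. Groups did not overlap in 25 members, against 59.6% of all genes. The median member difference was 0.24 and that of all genes 0.08. Centring each array on its median, in place of its 75th percentile, left 8 members called higher and 11 lower. Of the 26841 genes tested, 3608 were then called higher and 9370 lower. It moved the median of all genes to -0.265 and that of the members to -0.11. This shift is the same for every gene of a comparison. It ended the calls of Abcc1, Fth1, Gclm, Me1, Nfe2l1 and Txnrd1, cut the rises of Hmox1, Blvrb, Mafg and Mafk to between 0.58 and 0.652, and took the falls of G6pdx, Nfe2l2 and Pgd to between -0.82 and -0.75. Within slide 1, where 2 MG132 arrays met the untreated arrays, 23 members were called, 16 of them higher, against 46.6% of all genes called. Without all replicate 3 arrays 23 were called, against 39.9% of all genes.

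With both compounds against untreated cells, 22 members were called higher and 5 lower, or 77.1%, against 55.6% of all genes (33.2% higher and 22.4% lower). Osgin1, Srxn1, Maff, Sqstm1 and Hmox1 had the largest measured rises, that of Slc7a11 being known only as a bound, and Gsta4, Mt1, Gstm1, Pir and Pgd fell. Groups did not overlap in 30 members, against 72% of all genes, and the medians were 0.56 for the members and 0.19 for all genes. With median centring the median of all genes was -0.21, that of the members 0.16, and 16 members were called higher and 8 lower. Of the 26841 genes tested, 4443 were then called higher and 9960 lower. The rises of Abcc1, Fth1, Gclm and Me1 were then 0.61 to 0.77, still called. With slide as a block 19 members were called, 17 of them higher, against 25.9% of all genes called. No slide held both of these groups, so their slide term rests on the MG132 arrays. In every comparison of cells with both compounds it is the third MG132 array minus the mean of the first and second. Slide and replicate 3 cannot be told apart in it. Without the replicate 3 arrays 27 members were called, against 51.8% of all genes.

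Against MG132 alone, cells with both compounds had 17 members called higher and 0 called lower by limma, or 48.6%, against 26.2% of all genes (13.2% higher and 13% lower). At an unadjusted p under 0.05, where the share of all genes was not counted, 20 members were higher and 1 lower. The rises were largest in Maff, Slc7a11, Srxn1, Sqstm1 and Hmox1, and groups did not overlap in 20 members, against 49.9% of all genes. The median was 0.41 for the members and 0.06 for all genes. With slide as a block 10 of the 17 were called, and 7 of them were called within slide 2, all higher. That slide held only the third MG132 array, which was assumed to vary like the other groups, so its values compare that array and not MG132-treated cells as a group. Without the replicate 3 arrays 18 members were called higher and 1 lower, against 29.1% of all genes called. The share of all genes called with slide as a block was 11%.

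Against 4OHT alone, cells with both compounds had 22 members called higher and 4 lower, or 74.3%, against 49.9% of all genes (28.3% higher and 21.6% lower). Of the measured rises those of Ephx1, Osgin1, Srxn1 and Sqstm1 were the largest, Slc7a11 again having a bound, and Gsta4, Mt1, Gstm1 and Slc30a1 fell. Groups did not overlap in 26 members, against 57.4% of all genes. The median was 0.64 for the members and 0.11 for all genes, and with median centring these were 0.41 and -0.12. Then 17 members were called higher and 5 lower, beside 4980 and 8088 of the 26841 genes tested. With slide as a block 21 members were called, and without the replicate 3 arrays 25, against 19.8% and 47.3% of all genes. The comparisons share groups with one another, so their counts are not independent.

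**Figure D2:**
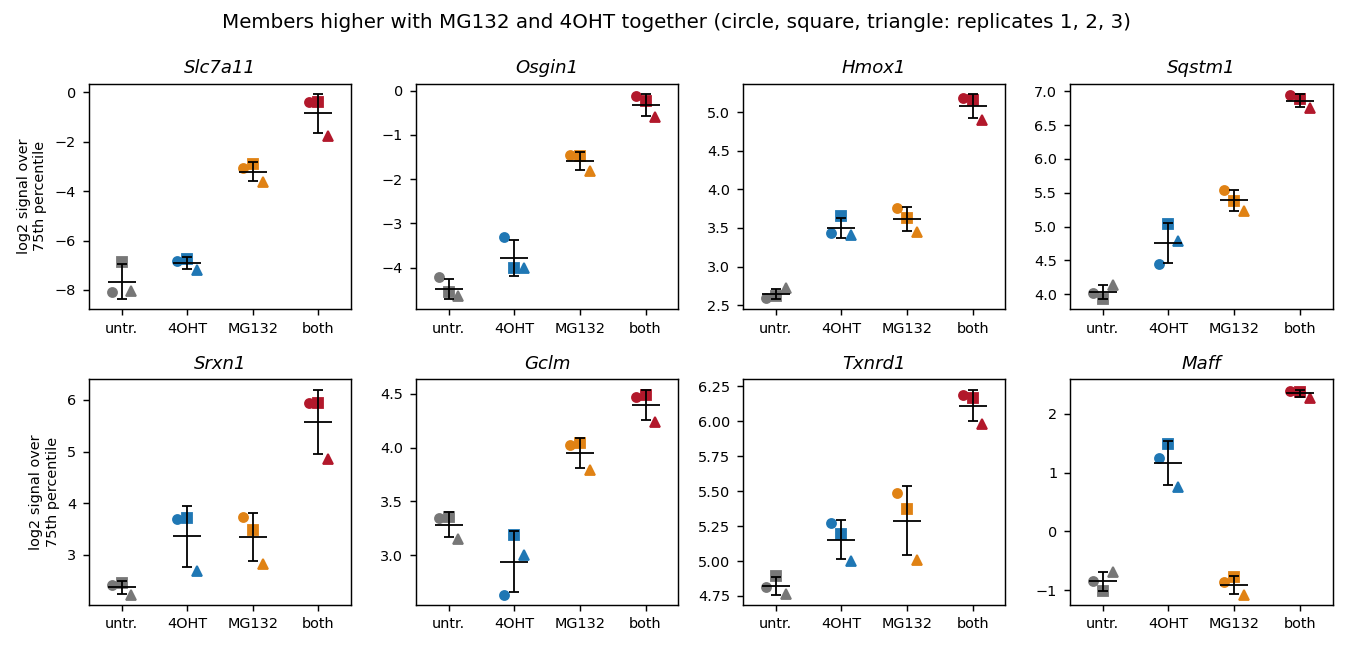
Log2 level relative to the 75th percentile of the array for Slc7a11, Osgin1, Hmox1, Sqstm1, Srxn1, Gclm, Txnrd1 and Maff, which rose with both compounds, with circles, squares and triangles for replicates 1, 2 and 3 in each of the 4 groups and a bar for the mean ± SD of the 3. In each gene the 3 arrays with both compounds lie above all arrays of untreated cells.

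Among the 7 genes for the NRF2 sensor and transcription factors, 4 were called higher and 1 lower with MG132 alone, and 5 were called higher with both compounds against untreated cells, beside 24.5% and 18.4% of all genes with MG132 and 33.2% with both. The RNA of Nfe2l2 itself moved little. Its level was 2.71, 2.83 and 2.83 in untreated cells, 3.17, 2.81 and 2.85 with 4OHT, 2.35, 2.39 and 2.39 with MG132 and 3.00, 2.88 and 2.90 with both. It fell with MG132 alone (-0.41 ± 0.10, adjusted p = 0.0097) and was higher with both than with MG132 alone (0.55 ± 0.10, adjusted p = 0.004), while both against untreated cells differed by 0.14 ± 0.10, adjusted p = 0.26. The fall with MG132 was not called without the replicate 3 arrays (-0.39, adjusted p = 0.069), and with slide as a block neither was the rise over MG132 alone (0.54, adjusted p = 0.054).

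Keap1, the repressor, had levels of 1.37, 1.42 and 1.15 in untreated cells, -0.28, 0.86 and 0.79 with 4OHT, 1.75, 1.76 and 1.59 with MG132 and 1.92, 1.86 and 1.85 with both. The first 4OHT array was far below the other 2. The fall with 4OHT (-0.85 ± 0.25, adjusted p = 0.027) was -0.49 without that array (adjusted p = 0.0074) and was not called without the first or the second untreated array (-0.83 and -0.80, adjusted p of 0.079 and 0.086), nor in a fit of only the arrays compared (adjusted p = 0.13). Its difference with both compounds was 0.56 ± 0.25, adjusted p = 0.079, and without the first 4OHT array, which entered only through the shared variance, the adjusted p of that difference was 0.00063. Against 4OHT alone Keap1 rose by 1.42 ± 0.25, adjusted p = 0.001.

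Nfe2l1 encodes NRF1, the relative of NRF2 that drives proteasome genes. Its level was 3.32, 3.39 and 3.44 in untreated cells, 3.29, 3.23 and 3.31 with 4OHT, 3.90, 3.90 and 3.66 with MG132 and 4.03, 3.98 and 3.75 with both. It was called higher with MG132 (0.44 ± 0.10, adjusted p = 0.0068) and with both compounds (0.53 ± 0.10, adjusted p = 0.0015), with no overlap with untreated cells, and under median centring these were 0.09 and 0.13 and not called. Sqstm1 encodes p62, a cargo receptor of autophagy that can also bind KEAP1, and lies at chr11:50200152-50210820. Its level was 4.02, 3.93 and 4.13 in untreated cells, 4.44, 5.04 and 4.79 with 4OHT, 5.54, 5.38 and 5.23 with MG132 and 6.95, 6.89 and 6.76 with both. No 2 of the 4 groups overlapped. Sqstm1 rose by 0.73 ± 0.15, adjusted p = 0.0046 with 4OHT, by 1.36 ± 0.15, adjusted p = 6.6e-05 with MG132 and by 2.84 ± 0.15, adjusted p = 4.8e-07 with both, a 7.14-fold rise.

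The small MAF proteins pair with NRF2 on DNA, and their 3 genes differed in which compound raised them. Maff, at chr15:79346621-79359078, had levels of -0.85, -1.02 and -0.69 in untreated cells, 1.26, 1.48 and 0.76 with 4OHT, -0.87, -0.78 and -1.08 with MG132 and 2.39, 2.38 and 2.27 with both. The arrays with MG132 alone overlapped those of untreated cells (-0.06 ± 0.17, adjusted p = 0.82), 4OHT alone raised it 4.04-fold (2.02 ± 0.17, adjusted p = 1.9e-05) and both compounds 9.18-fold (3.20 ± 0.17, adjusted p = 5.1e-07). Mafk rose by nearly the same amount with each compound. Its level was -1.60, -1.73 and -1.68 in untreated cells, -0.84, -0.34 and -0.74 with 4OHT, -0.70, -0.70 and -0.61 with MG132 and 0.37, 0.32 and 0.27 with both, a rise of 1.03 ± 0.12, adjusted p = 0.00017 with 4OHT and of 1.00 ± 0.12, adjusted p = 0.00013 with MG132, and with both of 1.99 ± 0.12, adjusted p = 1e-06. Mafg had levels of 3.95, 3.96 and 3.74 in untreated cells, 3.75, 4.26 and 3.98 with 4OHT, 4.93, 4.80 and 4.73 with MG132 and 5.52, 5.45 and 5.38 with both. The 4OHT arrays of Mafg overlapped those of untreated cells (0.11 ± 0.13, adjusted p = 0.58), and it was called higher with MG132 (0.93 ± 0.13, adjusted p = 0.00031) and with both (1.56 ± 0.13, adjusted p = 7e-06).

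Of the 5 genes of haem and iron handling, 3 were called higher with MG132 alone (24.5% of all genes), and 4 higher (33.2%) and 1 lower (22.4%) with both compounds. Hmox1, haem oxygenase 1, breaks haem down to biliverdin, iron and carbon monoxide, and lies at chr8:75093618-75100593. Its level was 2.597, 2.62 and 2.72 in untreated cells, 3.44, 3.65 and 3.41 with 4OHT, 3.76, 3.63 and 3.45 with MG132 and 5.18, 5.16 and 4.90 with both. Each compound alone raised it by a similar amount, 0.85 ± 0.12, adjusted p = 0.00043 with 4OHT and 0.97 ± 0.12, adjusted p = 0.00013 with MG132, and all 3 arrays with both compounds lay above every other array, 5.4-fold over untreated cells (2.43 ± 0.12, adjusted p = 3e-07). These 3 calls held under every setting tried. Blvrb, biliverdin reductase B, had levels of 1.253, 1.27 and 1.03 in untreated cells, 0.69, 1.03 and 0.83 with 4OHT, 2.31, 2.13 and 1.90 with MG132 and 2.67, 2.62 and 2.28 with both. It was called higher with MG132 (0.93 ± 0.15, adjusted p = 0.00069) and not called with 4OHT (-0.33 ± 0.15, adjusted p = 0.12), and the rise from 4OHT alone to both compounds was 1.67 ± 0.15, adjusted p = 1.3e-05.

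The ferritin chains store the iron that haem breakdown frees. Fth1, the heavy chain, was at 6.58, 6.56 and 6.67 in untreated cells and at 7.67, 7.56 and 7.61 with both compounds (1.01 ± 0.09, adjusted p = 9e-06), and it was called higher with MG132 alone (0.61 ± 0.09, adjusted p = 0.00037), a call lost under median centring (0.26, adjusted p = 0.062). Ftl1, the light chain, went from 8.82, 8.76 and 8.79 to 9.27, 9.20 and 9.23 (0.44 ± 0.10, adjusted p = 0.0043), which was not called under median centring (0.04) or with slide as a block (0.21, adjusted p = 0.39). A second Ftl1 probe rose by 0.59 with both compounds. Pir, pirin, an iron-binding nuclear protein, did not follow the other genes of this role. Its difference with both compounds was -0.51 ± 0.18, adjusted p = 0.036, and its called fall was lost in 4 of 12 fits that left out 1 array (-0.57 to -0.34, adjusted p of 0.052 to 0.14) and with slide as a block (-0.13).

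Among the 7 glutathione genes the suppliers rose and the transferases fell. With both compounds against untreated cells, Slc7a11, Gclc, Gclm and Abcc1 were called higher and Gsta4 and Gstm1 lower. Slc7a11, the cystine transporter xCT at chr3:50364936-50499087, was not well above background on any array without MG132, where its levels were -8.09, -6.86 and -8.04 in untreated cells and -6.83, -6.74 and -7.20 with 4OHT. It was above background on all arrays with MG132 (-3.05, -2.91 and -3.65) and with both (-0.40, -0.38 and -1.75). Set against the lowest signal well above background, it was at least 5.85-fold higher with MG132 and at least 30.0-fold higher with both than in untreated cells, and at least 16.4-fold higher with both than with 4OHT alone. With normexp correction, whose offset draws dim values together, these differences were 0.95, 2.47 and 2.05 on the log2 scale. Between both compounds and MG132 alone, where both sides were measured, it differed by 2.36 ± 0.42, adjusted p = 0.0031. The third array with both compounds was lower than the other 2 and still above every array with MG132 alone, and against the single MG132 array of slide 2 the difference was 2.80. A second, dimmer Slc7a11 probe was not well above background without MG132, nor on the third MG132 array (-7.08). On that probe the first and second MG132 arrays were at -4.15 and -4.26, and those with both compounds at -2.31, -2.13 and -3.92. No bound was set for it, so the bounds above hold for the brighter probe only.

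Glutamate-cysteine ligase makes the first intermediate of glutathione. Its catalytic subunit Gclc was at 2.26, 2.19 and 1.58 in untreated cells, 1.94, 2.35 and 1.74 with 4OHT and 3.72, 3.67 and 3.35 with both. With MG132 it was at 2.73 and 2.47 on the second and the third arrays, the first having been dropped for an outlier mark on its spot. The rise with both compounds was 1.57 ± 0.22, adjusted p = 0.00028, that with MG132 alone 0.59 ± 0.24, adjusted p = 0.081, and 4OHT alone gave a difference of 0.00 ± 0.22. The modifier subunit Gclm had levels of 3.35, 3.35 and 3.15 in untreated cells, 2.64, 3.19 and 3.00 with 4OHT, 4.02, 4.04 and 3.79 with MG132 and 4.46, 4.49 and 4.24 with both. It rose with MG132 (0.66 ± 0.15, adjusted p = 0.0048) and with both (1.11 ± 0.15, adjusted p = 0.00014), and with 4OHT alone differed by -0.34 ± 0.15, adjusted p = 0.12. The call with MG132 was lost under median centring (0.317, adjusted p = 0.19). The rise of Gclm from MG132 to both compounds (0.45 ± 0.15, adjusted p = 0.049) was lost in 10 of 12 fits that left out 1 array (0.37 to 0.53, adjusted p of 0.051 to 0.14). That of Gclc (0.98 ± 0.24, adjusted p = 0.018) was lost in 3 (0.85 to 0.93, adjusted p of 0.057 to 0.086) and with slide as a block (1.11, adjusted p = 0.096).

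Abcc1, which exports glutathione conjugates, had levels of -0.24, -0.52 and -0.92 in untreated cells, -0.52, -0.49 and -0.50 with 4OHT, 0.07, 0.12 and 0.07 with MG132 and 0.66, 0.66 and 0.52 with both. It rose with MG132 (0.65 ± 0.15, adjusted p = 0.0049) and with both (1.17 ± 0.15, adjusted p = 8.5e-05), and overlapped untreated cells with 4OHT (0.06 ± 0.15, adjusted p = 0.81). The call with MG132 was lost under median centring (0.30, adjusted p = 0.13) and within slide 1 (0.66, adjusted p = 0.056). Gsr, glutathione reductase, was called in no comparison, with differences from -0.14 to 0.29. Gsta4 and Gstm1 encode glutathione transferases, members of multigene families whose probes may share signal with their relatives. Gsta4 had levels of 4.34, 4.44 and 4.45 in untreated cells, 4.00, 4.11 and 4.20 with 4OHT, 2.91, 2.74 and 2.89 with MG132 and 2.80, 2.91 and 2.62 with both. It fell 2.95-fold with MG132 (-1.56 ± 0.10, adjusted p = 3e-06) and 2.5-fold from 4OHT to both (-1.32 ± 0.10, adjusted p = 5.3e-06). Gstm1 was lower in each treated group, by -0.48 ± 0.09, adjusted p = 0.0033 with 4OHT, -0.95 ± 0.09, adjusted p = 3.4e-05 with MG132 and -1.06 ± 0.09, adjusted p = 9.8e-06 with both.

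Of the 8 genes for thioredoxin, peroxides and quinones, Osgin1, Ephx1 and Txnrd1 were called higher with MG132 alone (24.5% of all genes), and 6 of the 8 with both compounds against untreated cells (33.2%). Srxn1, sulfiredoxin, which repairs over-oxidised peroxiredoxins, is at chr2:152105524-152111376; its promoter window above carries 1 antioxidant response element core. Its level was 2.42, 2.45 and 2.23 in untreated cells, 3.69, 3.71 and 2.68 with 4OHT, 3.72, 3.49 and 2.83 with MG132 and 5.94, 5.94 and 4.86 with both. In every group the third array was the lowest. The difference was 0.99 ± 0.36, adjusted p = 0.066 with 4OHT alone, 0.98 ± 0.36, adjusted p = 0.051 with MG132 alone and 3.21 ± 0.36, adjusted p = 4.6e-05 with both, a 9.27-fold rise that was 3.99 on the log2 scale with slide as a block. The slide term in that value is the third MG132 array minus the mean of the first and second, -0.78. Slide and replicate 3 cannot be told apart in it. Neither single compound passed the threshold with all 12 arrays, although neither overlapped untreated cells. Without the replicate 3 arrays both were called, at 1.26 (adjusted p = 0.00046) with 4OHT and 1.17 (adjusted p = 0.00071) with MG132.

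Osgin1, an oxidative stress induced growth inhibitor at chr8:119425882-119446257, had levels of -4.21, -4.56 and -4.65 in untreated cells, -3.31, -4.01 and -4.001 with 4OHT, -1.46, -1.48 and -1.83 with MG132 and -0.13, -0.23 and -0.60 with both. It rose 7.38-fold with MG132 (2.88 ± 0.22, adjusted p = 6.6e-06) and 17.8-fold with both (4.15 ± 0.22, adjusted p = 4.5e-07). With normexp correction, whose offset draws dim values together, its differences were 1.42 and 2.41 on the log2 scale, still called. The smaller rise with 4OHT alone (0.70 ± 0.22, adjusted p = 0.034) was lost in 3 of 12 fits that left out 1 array, the first 4OHT array or the second or the third untreated array (0.47 to 0.66, adjusted p of 0.088 to 0.10), and with quantile normalization (0.53, adjusted p = 0.071) or median centring (0.53, adjusted p = 0.078). Txnrd1, thioredoxin reductase, had levels of 4.81, 4.89 and 4.77 in untreated cells, 5.27, 5.19 and 4.997 with 4OHT, 5.48, 5.37 and 5.01 with MG132 and 6.19, 6.17 and 5.98 with both. It was called higher with both compounds against untreated cells (1.29 ± 0.13, adjusted p = 2.5e-05) and against MG132 alone (0.82 ± 0.13, adjusted p = 0.0018). Each of these calls held under every setting tried. The rise with MG132 alone (0.46 ± 0.13, adjusted p = 0.017) was lost without the first or second MG132 array or the third untreated array (0.37 to 0.44, adjusted p of 0.053 to 0.065) and under median centring (0.12, adjusted p = 0.56).

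Nqo1, the quinone reductase often taken as the marker of NRF2 activity, is at chr8:107388225-107403205. Its level was 1.73, 1.76 and 1.03 in untreated cells, 1.07, 1.43 and 0.36 with 4OHT, 2.11, 1.997 and 1.101 with MG132 and 2.33, 2.42 and 1.53 with both. In each group the third array was far below the other 2, and all 4 groups overlapped apart from 4OHT and both compounds. That rise, 1.14 ± 0.37, adjusted p = 0.027, was the only call for Nqo1 between treatments, and it was lost without the third 4OHT array (0.85, adjusted p = 0.092) or the first or second array with both compounds (1.02 and 0.98, adjusted p of 0.083 and 0.090) and under median centring (0.91, adjusted p = 0.074). With slide as a block it was 2.095, where the slide term is the third MG132 array minus the mean of the first and second (-0.95). Slide and replicate 3 cannot be told apart in that term. Without all replicate 3 arrays Nqo1 was called lower with 4OHT alone (-0.49, adjusted p = 0.041) and higher with both compounds against untreated cells (0.64, adjusted p = 0.011).

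Ephx1, microsomal epoxide hydrolase, moved in opposite directions with the 2 compounds. Its level was -0.00, 0.01 and 0.07 in untreated cells, -3.16, -2.56 and -1.12 with 4OHT, 2.93, 2.87 and 3.20 with MG132 and 1.79, 1.78 and 2.21 with both. It fell with 4OHT (-2.31 ± 0.40, adjusted p = 0.0018; -1.61 with normexp correction), where the 3 arrays spread widely, and rose 7.86-fold with MG132 (2.97 ± 0.40, adjusted p = 0.00024). All arrays with both compounds lay between those of untreated cells and those of MG132 alone, at 1.90 ± 0.40, adjusted p = 0.0025 from the former and -1.07 ± 0.40, adjusted p = 0.075 from the latter, the first of which became 1.597 with an adjusted p of 0.16 with slide as a block. Cat, catalase, rose by 0.49 ± 0.14, adjusted p = 0.012 with both compounds and was not called under median centring (0.08). Txn1, thioredoxin, was 0.39 ± 0.11, adjusted p = 0.012 higher with both compounds, a direction that turned under median centring (-0.02). Prdx1, a peroxiredoxin, was called in no comparison of treatments by its brightest probe (-0.32 ± 0.15, adjusted p = 0.11 with MG132), while its other 2 probes were called lower with MG132 (-0.59 and -0.82, adjusted p of 0.047 and 0.011).

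The 5 genes of NADPH supply showed no common direction. Me1, malic enzyme, was at 1.51, 1.46 and 1.61 in untreated cells, 2.92, 2.71 and 2.21 with 4OHT, 2.25, 2.24 and 2.18 with MG132 and 2.68, 2.78 and 2.66 with both. It rose with each compound alone (1.08 ± 0.15, adjusted p = 0.00051 and 0.70 ± 0.15, adjusted p = 0.0045) and with both (1.18 ± 0.15, adjusted p = 0.00012), the call with MG132 being lost under median centring (0.35, adjusted p = 0.073). G6pdx, the first enzyme of the pentose phosphate pathway, was called lower with MG132 (-0.47 ± 0.17, adjusted p = 0.049) and higher with both against MG132 alone (0.95 ± 0.17, adjusted p = 0.0034); the fall was lost in 9 of 12 fits that left out 1 array (-0.53 to -0.38, adjusted p of 0.054 to 0.15). Pgd, the next dehydrogenase of that pathway, fell with 4OHT (-0.42 ± 0.12, adjusted p = 0.028) and with MG132 (-0.45 ± 0.12, adjusted p = 0.015). The first call was lost without any 1 of the untreated arrays or the second 4OHT array (-0.43 to -0.38, adjusted p of 0.064 to 0.081), and the other with quantile normalization (-0.29, adjusted p = 0.093). Its fall with both compounds (-0.33 ± 0.12, adjusted p = 0.042) became 0.04 with slide as a block. Tkt, transketolase, was called higher with both compounds against untreated cells (0.30 ± 0.11, adjusted p = 0.04), a direction that turned under median centring (-0.11). Taldo1, transaldolase, was called in no comparison, and its difference with both compounds from untreated cells was -0.03 ± 0.11.

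The metal genes did not rise with MG132. Mt1 and Mt2 encode the metallothioneins, and their promoter windows above carry 3 and 4 metal response element cores. Mt1 was at 7.74, 7.74 and 7.14 in untreated cells, 7.52, 7.82 and 7.22 with 4OHT, 6.66, 6.54 and 5.70 with MG132 and 6.47, 6.45 and 5.83 with both. Both groups with MG132 lay below both groups without it, and the differences were -1.24 ± 0.29, adjusted p = 0.0064 with MG132, -1.29 ± 0.29, adjusted p = 0.0039 with both against untreated cells and -1.27 ± 0.29, adjusted p = 0.0048 with both against 4OHT. With 4OHT alone Mt1 differed by -0.01 ± 0.29, adjusted p = 0.98. With slide as a block the second and the third of these falls were -0.39 (adjusted p = 0.56) and -0.37 (adjusted p = 0.59), while the fall with MG132 alone was called under every setting tried. The slide term in those values is the third MG132 array minus the mean of the first and second, -0.90 for Mt1. The third array of Mt1 was lower in every group, so slide and replicate 3 cannot be told apart in that term. A second, dimmer Mt1 probe fell by 0.78 with MG132, with an adjusted p of 0.085. With both compounds that probe differed by -0.41 from untreated cells (adjusted p = 0.33) and by -0.80 from 4OHT alone (adjusted p = 0.07). On it the arrays of each group with MG132 overlapped those of untreated cells.

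Mt2 was at 8.28, 8.26 and 7.83 in untreated cells, 8.26, 8.34 and 7.95 with 4OHT, 7.33, 7.24 and 6.45 with MG132 and 7.80, 7.79 and 6.75 with both. It fell with MG132 (-1.12 ± 0.31, adjusted p = 0.015), and this was lost without the third MG132 array (-0.84, adjusted p = 0.057) or the first or second untreated array (-1.04 and -1.05, adjusted p = 0.051 in each). With both compounds it differed from untreated cells by -0.68 ± 0.31, adjusted p = 0.089, with no overlap between the groups, and without the replicate 3 arrays by -0.48 (adjusted p = 0.0042). Slc30a1, the zinc exporter ZnT1 and a usual target of MTF1 alongside the metallothioneins, was at 0.07, 0.12 and -0.02 in untreated cells, 0.20, -0.06 and 0.58 with 4OHT, 0.15, 0.01 and -0.08 with MG132 and 0.01, -0.17 and -0.41 with both. Those groups overlapped throughout. Its 1 call, both compounds against 4OHT alone (-0.43 ± 0.16, adjusted p = 0.049), was lost in 10 of 12 fits that left out 1 array (-0.45 to -0.26, adjusted p of 0.057 to 0.17).

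The interaction of the 2 compounds asks whether the change with both exceeds the sum of the changes with each alone on the log2 scale. Maff was called (1.24 ± 0.24, adjusted p = 0.015), which is 1 of 35 members (2.86%) against 6.51% of all genes (2.63% higher and 3.88% lower). At an unadjusted p under 0.05, where the share of all genes was not counted, 18 members were higher and 1 lower. The value was above 0 in 31 of 35 members (88.6%), against 51.4% of all genes, and the median was 0.45 for the members and 0.01 for all genes. Slc7a11 is among the 31, and its value rests on levels below background without MG132. For Maff, changes of 2.02 and -0.06 met a change of 3.20 with both. For Hmox1 changes of 0.85 and 0.97 met 2.43 (0.61 ± 0.17, adjusted p = 0.058), for Sqstm1 changes of 0.73 and 1.36 met 2.84 (0.75 ± 0.21, adjusted p = 0.065), and for Srxn1 changes of 0.99 and 0.98 met 3.21 (1.24 ± 0.51, adjusted p = 0.2). Mafk is the contrasting case, with 1.03 and 1.00 meeting 1.99 (-0.04 ± 0.17, adjusted p = 0.93). Second probes of Sqstm1 (0.80 ± 0.14, adjusted p = 0.0096) and Ftl1 (0.61 ± 0.13, adjusted p = 0.026) were called in a fit of every probe, where the brightest probes of these genes were not (0.75 and 0.11). Me1 had the lowest value (-0.60 ± 0.22, adjusted p = 0.14).

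The number of members called for the interaction moved with single arrays. It was 5 without the second 4OHT array, 4 without the third array with both compounds, 3 without the third untreated, the first 4OHT or the third 4OHT array, 2 without the third MG132 array, and 1 without each of the other 6. The shares of all genes called were 5.8%, 5.36%, 6%, 8.17%, 9.28% and 7.01% in the same order, and 3.9% to 4.23% for the rest. Without all replicate 3 arrays 6 members were called, beside 10.3% of all genes: Maff, Ephx1 (1.75), Srxn1 (1.07), Abcc1 (0.69) and Pgd (0.52) above 0 and Me1 (-0.84) below. With slide and replicate number both as blocks the value for Maff was 1.30 with an adjusted p of 0.097.

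**Figure D3:**
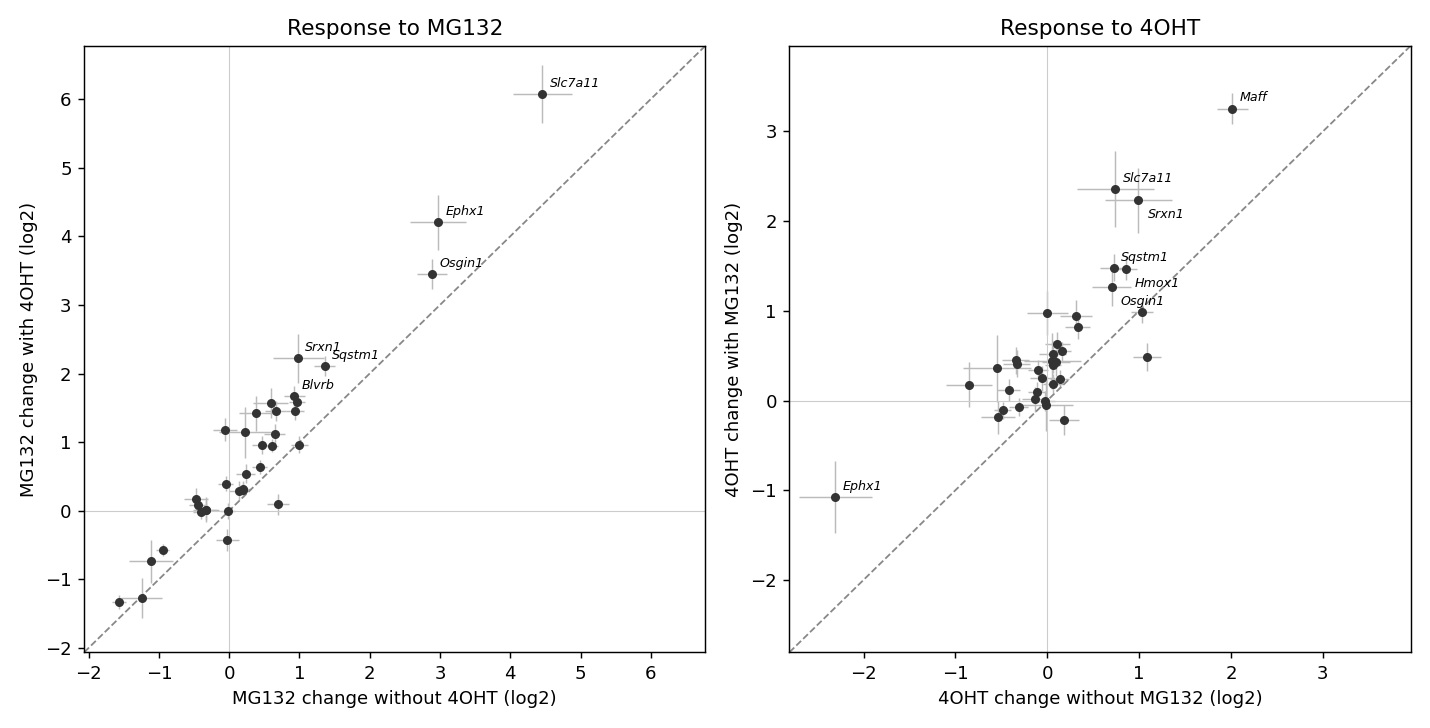
Each of the 35 members as a point, with its standard error as bars. The left panel sets the log2 change with MG132 in 4OHT-treated cells against that in cells without 4OHT, and the right panel sets the log2 change with 4OHT in MG132-treated cells against that in cells without MG132; on the dashed line both changes are equal. Most points lie above the line (31 of 35), and values of Slc7a11 without MG132 are below background.

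The third replicate of every group was lower for a subset of members. The comparison of the replicate 3 arrays with the first and second arrays of the same groups was set up because earlier results of these data had shown it, so its counts are a description. At an unadjusted p under 0.05, where the share of all genes was not counted, 13 members were lower and 3 higher. By limma 9 members were called lower and 0 higher, or 25.7%, against 10.1% of all genes (5.26% higher and 4.83% lower). They were Nqo1 (-0.85 ± 0.08, adjusted p = 0.00042), Srxn1 (-0.77 ± 0.13, adjusted p = 0.0065), Mt2 (-0.67 ± 0.11, adjusted p = 0.0053), Mt1 (-0.64 ± 0.08, adjusted p = 0.002), Gclc (-0.42 ± 0.10, adjusted p = 0.03), Pir (-0.39 ± 0.06, adjusted p = 0.0036), G6pdx, Prdx1 and Txnrd1, the last 3 from -0.32 to -0.23. For Nqo1 the third array lay below the mean of the other 2 by 0.71 in untreated cells, 0.89 with 4OHT, 0.95 with MG132 and 0.85 with both.

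In 7 of 35 members (20%) the third array was below both others in all 4 groups, against 7.27% of all genes: Gclc, Mt1, Mt2, Nqo1, Pir, Srxn1 and Txnrd1. Only the calls of Mt1, Mt2, Nqo1, Pir and Srxn1 held under every setting tried, and 5 members were called without the second or the third MG132 array or without any 1 of the 3 arrays with both compounds. The shares of all genes called in those fits were 6.23% to 7.35%. Primitive endoderm markers moved with the same arrays. Of 10 such markers 5 were called higher and 0 lower on the replicate 3 arrays, against 5.26% and 4.83% of all genes. Their summed level was 52.0 to 60.1 there and 29.5 to 47.2 on the others. The part of those cells, or of the culture they came from, in the levels of the members was not tested. The third array of MG132 alone was on slide 2 and those of untreated cells and 4OHT on slide 1, so replicate number and slide differ.

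**Figure D4:**
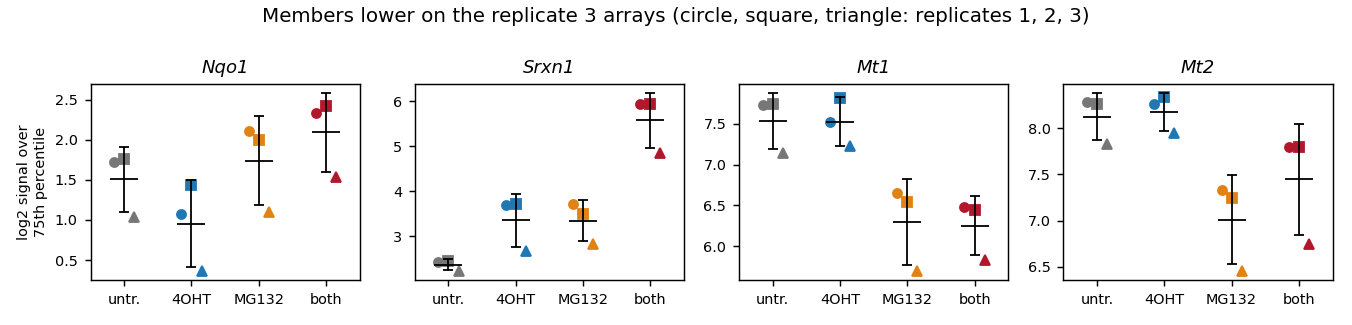
Log2 level relative to the 75th percentile of the array for Nqo1, Srxn1, Mt1 and Mt2 in the 4 groups, with circles, squares and triangles for replicates 1, 2 and 3 and a bar for the mean ± SD of the 3. The triangle of replicate 3 is the lowest point in every group of each gene.

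Other genes of the NRF2 pathway gave mixed directions. Of 54 such genes on the array 51 were tested. With 4OHT 12 were called higher and 14 lower, with MG132 18 and 12, with both compounds against untreated cells 20 and 15, against MG132 alone 14 and 10, and against 4OHT alone 20 and 14. In that order 51%, 58.8%, 68.6%, 47.1% and 66.7% of the 51 were called, against 28.5%, 43%, 55.6%, 26.2% and 49.9% of all genes. The median difference was -0.17 with 4OHT alone, where that of all genes was 0.05. It was 0.07 with MG132 alone and 0.11 with both compounds against untreated cells, beside 0.08 and 0.19 over all genes. With 4OHT alone the largest were the exporter Abcc3 (4.30 ± 0.21, adjusted p = 8.2e-07), the aldo-keto reductase Akr1b8 (4.14 ± 0.31, adjusted p = 8.1e-06) and Bach2, a repressor related to BACH1 (2.59 ± 0.21, adjusted p = 1.2e-05). Cyp2a5, a cytochrome P450, was at least 1.24-fold lower.

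With MG132 alone, Mgst2, a microsomal glutathione transferase, was at least 6.54-fold higher and the exporter Abcc2 at least 2.83-fold higher, neither being well above background in untreated cells. Sesn2, a sestrin, rose by 1.84 ± 0.13 (adjusted p = 5.0e-06) and Slc48a1, a haem transporter, by 1.67 ± 0.11 (adjusted p = 2.8e-06). With both compounds Mgst2 was at least 15.2-fold higher than in untreated cells, and the aldo-keto reductases Akr1c13 (2.92 ± 0.16, adjusted p = 6.5e-07) and Akr1c12 (2.67 ± 0.25, adjusted p = 1.3e-05) rose. For the interaction 4 of the 51 were called higher and 3 lower (13.7%, against 6.51% of all genes), and Abcc3 (-2.17 ± 0.29, adjusted p = 0.0027) and Bach2 (-2.08 ± 0.29, adjusted p = 0.0031) were on the lower side, the opposite of Maff.

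Of 17 other genes of zinc, copper and iron transport and metal sensing, 16 were tested, and 4 were called higher and 1 lower with 4OHT, 3 and 3 with MG132, 4 and 3 with both against untreated cells, 3 and 1 against MG132 alone and 2 and 3 against 4OHT alone. In that order 31.2%, 37.5%, 43.8%, 25% and 31.2% of the 16 were called, against 28.5%, 43%, 55.6%, 26.2% and 49.9% of all genes. The zinc importer Slc39a14 rose with 4OHT (2.02 ± 0.23, adjusted p = 0.00012). Another importer, Slc39a10, rose with 4OHT (1.24 ± 0.13, adjusted p = 6.7e-05) and fell with MG132 (-1.001 ± 0.13, adjusted p = 0.00017). The importer Slc39a1 fell with MG132 (-1.23 ± 0.13, adjusted p = 4.1e-05). For the interaction 0 of the 16 were called by limma, against 6.51% of all genes. At an unadjusted p under 0.05, where the share of all genes was not counted, 1 was higher and 4 lower. On the replicate 3 arrays 2 of the 16 were called higher and 3 lower (31.2%, against 10.1% of all genes). Mtf1, which encodes the metal-sensing factor, was lower there (-0.59 ± 0.06, adjusted p = 0.00059), where Mt1 and Mt2 were also lower. A link between these was not tested.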

How the data were processed

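RNA came from silica columns after DNase treatment, and 100 ng of it was amplified and Cy3-labelled for each array, per the labels' protocols. The authors deposited processed intensity for every spot from Agilent Feature Extraction 11.0.1.1. Those values were background-subtracted inside an array and not scaled between arrays, per the file headers. The series-wide intensity values the authors deposited were identical (largest difference 0, column medians from 21.7 to 33.6), so they are on the scanner's scale and uncentred. Of 62976 spots, 3671 controls and all outlier-marked spots were removed. Probe accessions were matched to RefSeq names of GRCm38.p6, which named 32994 of 56605 probes (58.3%). No coordinate of the array's own build was used.

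The 75th percentile of each array was subtracted from its log2 processed intensity. A probe had to be well above background throughout at least 1 group (34332 probes), and the brightest probe stood for its gene. This left 26841 genes, 15987 with a symbol, of which 112 lacked a value for some comparison. Where no array of a group was above background, an "at least" fold sets the bright mean against a floor, which is per array the dimmest signal that was well above background or the probe's own if higher. limma 3.58.1 (R 4.3.3, with version 1.17.8 of data.table and jsonlite 2.0.0) had 1 coefficient a group over all 12 arrays, with 8 residual and 2.09 prior degrees of freedom. P-values were Benjamini-Hochberg adjusted and 0.05 was the threshold. A separate fit added a term for replicate 3. The fit was tested on simulated data. No exact test was run, since 3 arrays against 3 allow no p under 0.1. Plots used Python 3.11.15, matplotlib 3.10.9, numpy 2.4.6 and pandas 2.3.3.

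The members, lists and settings were chosen with earlier results of these data known. Values on every array are given for a chosen set of members and for any other called with a log2 change of at least 1 with MG132 against untreated cells or with both compounds against 4OHT. Up to 4 genes of each other list are named per comparison. Alternatives were normexp correction (offset 50, run on median signals since mean signals were not used here), quantile normalization, median centring, the filter dropped or required on all 12 arrays, probes averaged within a gene, the series-wide values, slide and replicate blocks, single slides, only the arrays compared, each array left out and, added after seeing the data, all replicate 3 arrays left out.

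The number of arrays limits the precision. Cross-hybridisation between relatives in gene families was not tested.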

Additional observations from a re-analysis of the deposited data

Results flagged for a closer look

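Maff responded to 4OHT by a different amount with and without MG132. The difference between the 2 responses, tested as the interaction term of limma, was 1.24 ± 0.24 (log2, SE, adjusted p = 0.015): 2.02 without MG132 and 3.25 with it, and all 3 arrays with both compounds were above all 3 with 4OHT alone. Only with slide and replicate number both as blocks was the adjusted p above 0.05 (1.30, adjusted p = 0.097).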

How the results depend on the processing

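With 3 arrays a group, members close to the threshold move across it, and slide, treatment and replicate number are tangled. Of the members called, 7 of 11 with 4OHT alone, 11 of 21 with MG132 alone, 16 of 27 with both against untreated cells, 6 of 17 against MG132 alone, 14 of 26 against 4OHT alone and 5 of 9 on the replicate 3 arrays kept their call under every setting tried. Leaving out 1 array gave 7 to 13 members called with 4OHT, 19 to 23 with MG132, 23 to 28 with both, 12 to 19 against MG132, 22 to 26 against 4OHT, 1 to 5 for the interaction and 5 to 10 on the replicate 3 arrays. The shares of all genes called in these fits were, in the same order, 21.4% to 32.1%, 35.4% to 48.7%, 47.9% to 61.4%, 16.9% to 32.5%, 42.4% to 53%, 3.9% to 9.28% and 6.23% to 13.2%. Cells with both compounds against MG132 alone had 10 members called with slide as a block, 7 within slide 2 and 9 with slide and replicate blocks, and against 4OHT alone 16 with slide and replicate blocks. The interaction gave 3 members with normexp correction, 2 with quantile normalization, 5 with the filter on all 12 arrays, 2 with the mean over probes, 2 with slide as a block and 6 without the replicate 3 arrays. Beside these counts stood 7.29%, 7.02%, 8.95%, 6.2%, 2.96% and 10.3% of all genes. The replicate 3 arrays had 5 members called with no filter and 5 with slide as a block, beside 2.96% and 6.57% of all genes. Replicate numbers did not pair the samples as a whole. Deviations of same-numbered arrays correlated at -0.06 to 0.155 for number 1 and 0.07 to 0.154 for number 2, and those of different numbers at -0.292 to 0.194. The number 3 arrays deviated together, over 0.1 in 6 of 6 pairs (0.115 to 0.406). In 6 of 12 arrays the deviations correlated best with arrays of their own number, all 4 arrays of number 3 among them, which is a hint from the data and not from the design. With a replicate block the counts were 14, 25, 29, 21 and 26 for the 5 comparisons of treatments in the order of the report. The shares of all genes called were then 33.1%, 47.2%, 58.8%, 32.1% and 53.7%. For the interaction the count with that block was 11, beside 9.65% of all genes. Directions turned for Pgd (0.0388) and Tkt (-0.0025) with slide as a block, and for Tkt (-0.11) and Txn1 (-0.017) under median centring. All were with both compounds against untreated cells. The slide term there is the third MG132 array minus the mean of the first and second, -0.37 for Pgd and 0.30 for Tkt. Slide and replicate 3 cannot be told apart in that term. Median centring shifts every gene of a comparison by the same amount. Over all genes, calls with both compounds fell from 14917 to 6964 with slide as a block and 6043 with slide and replicate blocks against untreated cells, from 7031 to 2951 and 2300 against MG132 alone (2134 within slide 2), and from 13387 to 5315 and 4815 against 4OHT alone. Those of 4OHT alone were 7657, 14552 with no filter and 5029 with only the arrays compared, the same arrays as within slide 1. For the interaction they were 1747, 795 with slide as a block, 816 with slide and replicate blocks and 2768 without the replicate 3 arrays, and for the replicate 3 arrays 2709, 1351 with no filter and 1764 with slide as a block. Signal over background limits Slc7a11, whose fold is a bound wherever cells had no MG132.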
